A study of Oncorhynchus mykiss with 8 samples.

Results

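The aryl hydrocarbon receptor gene ahr2d and its classic induced target cyp1a were followed in liver and muscle of small and large rainbow trout. They are 2 of 174 distinct gene symbols of the platform, and every probe with either symbol in any letter case was taken, 3 probes of 43603 on the array. A_05_P248994 and A_05_P249154 carry the symbol cyp1a, and A_05_P248851 carries ahr2d. The platform annotation ties each of them to a different RefSeq transcript record. Of these 3 records, 0 were found in the reference annotation used here (assembly USDA_OmykA_1.1), so no position, exon or sequence is given. Among the records of all 221 probes with a platform symbol, 0 were found as well.

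All fish belonged to the Lyndon strain, were offspring of neomales and were fed without restriction. Neomales are genetic females that were turned into functional males. Each of the 8 two-colour arrays compared a pool of small fish with a pool of large fish of 1 tissue, with mRNA of 5 fish in each pool. By their titles, every pair of pools was taken to lie on 2 arrays that differ in their dyes, large fish in Alexa Fluor 555 on one and in Alexa Fluor 647 on the other. This gives 2 pool pairs in liver and 2 in muscle, which are the replicates. The labels give neither ages nor body weights, and they do not state whether pools of one number share fish, so p-values measure the spread between these pool pairs.

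The deposited value is a log2 ratio of both channels, with no intensity beside it. The numerator and whether the authors had already turned the arrays with exchanged dyes are not given in the sources used here. Each value is therefore reported in 2 readings. In the turned reading, which is the main one, arrays that carried large fish in 647 had their sign changed before the arrays of a pair were averaged. In the other, called as deposited, no sign was changed. No value is called higher in small or in large fish. A turned value has the sign that belongs to large fish in 555. The deposited value of an array has the sign of that array's own dye orientation. A pair value as deposited is the plain mean of its 2 arrays, so its sign belongs to neither orientation. The ratios carry no level, so the tissue labels could not be checked against marker genes. Fewer cells of a type and less RNA per cell cannot be told apart in such tissue pools.

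The aryl hydrocarbon receptor is a transcription factor that is held in the cytoplasm by an HSP90 chaperone complex. When it binds a ligand such as a dioxin or a polycyclic aromatic hydrocarbon it enters the nucleus, pairs with ARNT and induces its targets. Of these CYP1A, a cytochrome P450 that oxidises planar foreign compounds, is the best known. Salmonid fish carry several receptor genes of the AHR1 and AHR2 types and near-identical CYP1A copies. Liver is the main site of CYP1A in fish, and its induction there is widely used as a sign of exposure to such compounds. Probes of near-identical copies may share signal, so a value given for cyp1a or ahr2d here may hold signal of a related copy.

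The cyp1a target was measured first in liver. In liver, with large fish in 555, A_05_P248994 had deposited log2 ratios of -2.20 in pool pair 1 and -1.05 in pool pair 2. With large fish in 647 the same pools gave 0.76 and -0.58. The first value is a 4.61-fold ratio, and 0.442% of the probes with a value on that array lay lower. The dye exchange changed the sign of this probe in pool pair 1 and left it negative in pool pair 2.

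The second cyp1a probe, A_05_P249154, had -2.10 and -0.86 with large fish in 555, against 0.16 and 0.13 with large fish in 647. Its lowest value was a 4.27-fold ratio with 0.535% of the probes lower. Both probes were thus far below 0 in 1 dye orientation in both pool pairs, and in the other orientation A_05_P249154 was near 0 in both. The orientation means were -1.63 ± 0.81 (SD, n = 2 pool pairs) and -1.48 ± 0.88 with large fish in 555, and 0.09 ± 0.95 and 0.15 ± 0.02 with large fish in 647, for the first and the second probe. Of all probes measured on both liver arrays with large fish in 555, 5.99% lay under -0.5 on both.

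**Figure D1:**
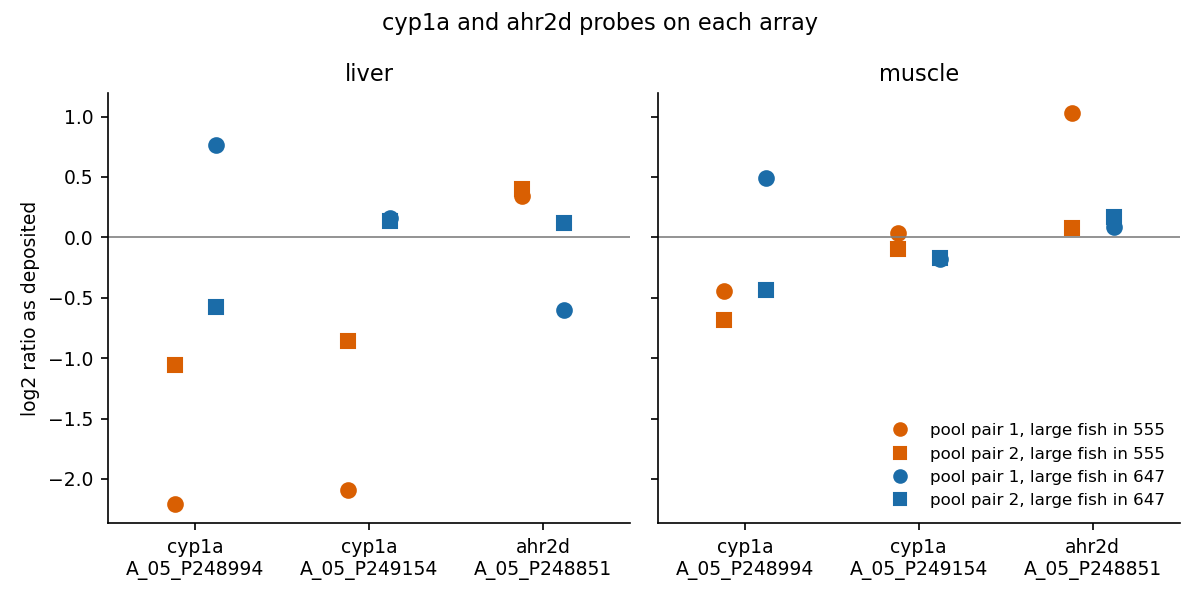
Deposited log2 ratio (vertical axis) of the 3 probes on the 4 liver arrays (left) and the 4 muscle arrays (right); circles are pool pair 1 and squares pool pair 2, orange with large fish in Alexa Fluor 555 and blue with large fish in Alexa Fluor 647. Both cyp1a probes reach -2.20 and -2.10 in liver pool pair 1 with large fish in 555, while the blue points of A_05_P249154 lie at 0.16 and 0.13.

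Reduced to 1 value per pool pair, both cyp1a probes were negative in liver in both pairs and in both readings. Turned, A_05_P248994 had -1.48 and -0.24, a mean of -0.86 ± 0.88 (SD, n = 2 pool pairs). As deposited it had -0.72 and -0.81, a mean of -0.77 ± 0.07. The pool pairs of this probe thus lay close together when no sign was changed and far apart when turned.

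For A_05_P249154 the turned values were -1.13 and -0.50, with a mean of -0.81 ± 0.45, and those as deposited -0.97 and -0.36, with a mean of -0.67 ± 0.43. In both readings pool pair 1 was the lower one. The means of the 2 probes corresponded to ratios of 1.82-fold and 1.75-fold turned, and of 1.70-fold and 1.59-fold as deposited. When turned, A_05_P249154 was negative on 4 of 4 liver arrays, as were 8.51% of the probes. Among 36053 liver probes with a value on all 4 arrays, 24.8% were negative in both pool pairs turned and 24.7% as deposited. Of these probes, 7.33% were negative in both pool pairs under both readings, and 0.76% had a mean past 1.5-fold on the negative side under both, as both cyp1a probes did. Arrays of large fish in 555 set that sign in each reading, since their values exceeded in size those of the exchanged arrays in both pairs.

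Neither cyp1a probe passed the test in liver. In limma, with Benjamini-Hochberg adjustment over all probes tested, the adjusted p was 0.251 for A_05_P248994 and 0.179 for A_05_P249154 turned, and 0.412 and 0.435 as deposited. Of the 3 probes 0 passed an adjusted p of 0.05, as did 0% of all liver probes in either reading. Before adjustment, limma gave 0.00926 for A_05_P249154 and 0.0551 for A_05_P248994 turned. Thus 1 of 3 was under 0.05, where 20.4% of all liver probes were. As deposited both cyp1a probes were, with 0.00955 for A_05_P248994 and 0.0168 for A_05_P249154, against 9.97% of all probes. In that fit liver and muscle give one estimate of the spread. In a limma fit of the liver pairs by themselves, A_05_P249154 had 0.0332 turned and 0.0516 as deposited, and A_05_P248994 had 0.0986 and 0.00918. Then 1 of 3 was under 0.05 in each reading, against 7.34% of all liver probes turned and 4.25% as deposited. In the fit of both tissues the 95% interval of the turned mean ran from -1.75 to 0.03 for A_05_P248994 and from -1.30 to -0.33 for A_05_P249154. With liver fitted alone it ran from -2.01 to 0.28 and from -1.51 to -0.12.

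In the turned reading liver pool pair 1 carried much of the size. With pool pair 1 alone the turned value was -1.48 for A_05_P248994 and -1.13 for A_05_P249154, each more than 1.5 times the value from pool pair 2. As deposited this held for A_05_P249154, with -0.97 and -0.36, and not for A_05_P248994, with -0.72 and -0.81. The fits that follow used turned values. Left without replicate 2, the limma fit gave an adjusted p of 0.00341 for A_05_P248994 and 0.00339 for A_05_P249154, and without replicate 1 it gave 0.341 and 0.0410. In those fits a lone liver pair is assumed to vary like muscle, and 7651 to 7964 probes of all passed, against 0 with both pairs. An added alternative, chosen after seeing the data, took liver replicate 2 from 1 array, that of large fish in 555, and gave A_05_P249154 an adjusted p of 0.0479 in limma with 633 probes passing.

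In muscle the cyp1a means were smaller in size. The spread of all probes was smaller there too, with an SD per array of 0.32 to 0.33 against 0.55 to 0.92 in liver. A_05_P248994 had -0.44 and -0.69 with large fish in 555, and 0.49 and -0.44 with large fish in 647. As in liver, the exchange changed its sign in pool pair 1 and not in pool pair 2. The probe had a turned mean of -0.30 ± 0.24 (SD, n = 2 pool pairs) and a mean of -0.27 ± 0.42 as deposited, where the pairs had 0.03 and -0.56. Divided by the SD of their array, its deposited muscle values were -1.33 and -2.14 with large fish in 555, and 1.55 and -1.37 in 647. In liver they were -3.52 and -1.91 with large fish in 555, and 1.03 and -0.62 in 647.

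For A_05_P249154 the muscle values were 0.04 and -0.09 with large fish in 555, and -0.18 and -0.17 with large fish in 647. All 4 lay close to 0, at or under a 1.13-fold ratio. Divided by the SD of their array they ran from -0.56 to 0.11, against -3.35 to 0.21 in liver. Its turned mean was 0.07 ± 0.05 and the mean as deposited -0.10 ± 0.04, so its sign in muscle rested on the reading. In limma both probes had an adjusted p of 1 in muscle in both readings. Of the 3 probes of both genes, 0 had an unadjusted p under 0.05 there, against 4.53% of all muscle probes turned and 1.63% as deposited, and 0% of all passed the adjusted threshold in either reading. Here too the spread was estimated over both tissues. In a limma fit of the muscle pairs by themselves, A_05_P248994 had an unadjusted value of 0.0401 and an adjusted p of 0.382 turned, so that 1 of 3 was under 0.05 against 12.1% of all muscle probes. As deposited 0 of 3 were, against 2.97%. In the fit of both tissues the 95% interval of the turned mean was -1.19 to 0.59 for A_05_P248994 and -0.41 to 0.56 for A_05_P249154. With muscle fitted alone it was -0.57 to -0.02 and -0.14 to 0.28.

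**Figure D2:**
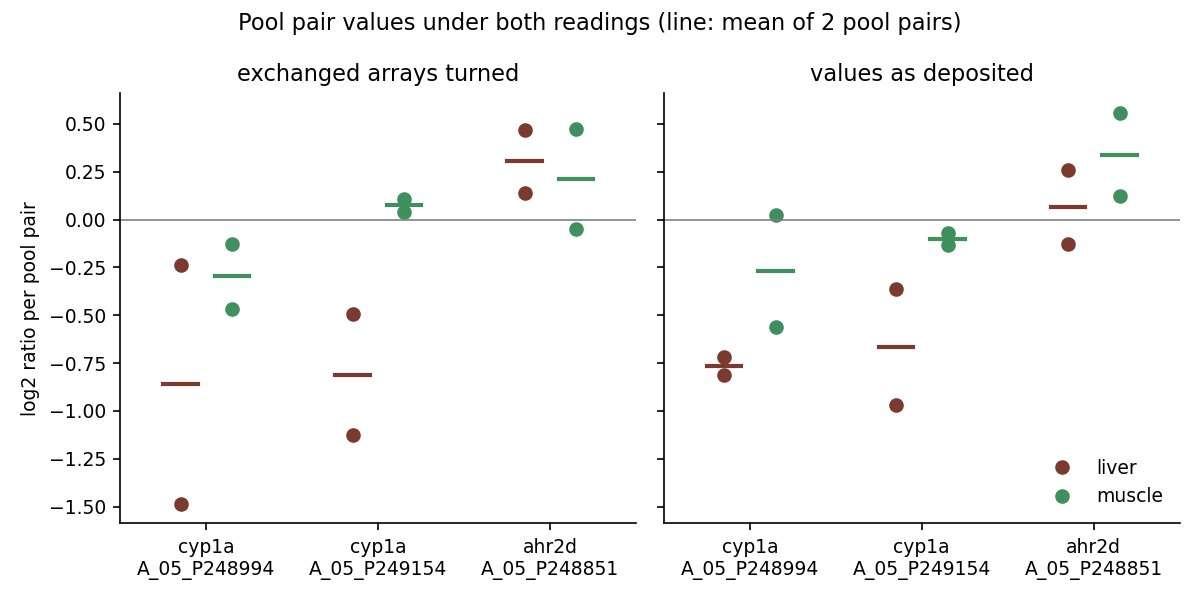
Log2 ratio per pool pair (vertical axis) of the 3 probes with the exchanged arrays turned (left) and as deposited (right); points are the 2 pool pairs of liver (brown) and muscle (green), and lines are their means. Both cyp1a probes are below 0 in every liver pair of both panels, with means from -0.86 to -0.67, while the muscle means run from -0.30 to 0.07.

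The cyp1a ratios of liver and muscle were then set against each other. For A_05_P249154 the turned liver mean was lower than the muscle mean by a difference of -0.89, with both liver pairs negative and both muscle pairs positive. This order was also found in 4.37% of 34757 probes. The difference had an unadjusted p of 0.0227 and an adjusted p of 0.546 in limma, and its 95% interval was -1.57 to -0.20. As deposited the difference was -0.56 with an adjusted p of 0.842, and all 4 pairs were negative. For A_05_P248994 the difference was -0.56 turned and -0.50 as deposited, with adjusted p of 0.673 and 0.842 in limma. With each array centred and scaled to 1 spread, the turned difference was -0.33 for A_05_P248994 and -0.85 for A_05_P249154. Without liver replicate 1 the turned difference of A_05_P248994 was 0.06, of the other sign, and without liver replicate 2 it was -1.19. Without liver replicate 2 the adjusted p in limma was 0.0205 for that probe and 0.00971 for A_05_P249154, in a fit that passed 4117 probes. With both pairs, 1 of the 3 probes had an unadjusted p under 0.05 turned and 0 as deposited, against 8.97% and 4.94% of all probes, and 0% of all passed after adjustment.

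The 2 cyp1a probes gave nearly one value where the ratio was large and differed where it was small. In liver, with large fish in 555, the first probe differed from the second by -0.11 in pool pair 1 and by -0.20 in pool pair 2. On the other 6 arrays the difference ranged from -0.71 to 0.67, and none of them lay between -0.26 and 0.61. The probes had one sign on 5 of 8 arrays, 3 of them in liver. They belong to 2 transcript records, and whether each measures its own cyp1a copy was not tested.

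The receptor gene ahr2d had ratios closer to 1 in liver. Its values were 0.34 and 0.40 with large fish in 555, and -0.60 and 0.12 with large fish in 647. Both arrays of the first orientation thus lay close together, and those of the second differed in sign. The turned pairs had 0.47 and 0.14, a mean of 0.31 ± 0.23 (SD, n = 2 pool pairs), a 1.24-fold ratio with an adjusted p of 0.361 in limma. As deposited they had -0.13 and 0.26, a mean of 0.07 ± 0.27 with an adjusted p of 0.896. Turned, 37.3% of all liver probes were positive in both pool pairs, as ahr2d was.

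In muscle ahr2d was positive on 4 of 4 arrays as deposited. With large fish in 555 it had 1.03 in pool pair 1 and 0.07 in pool pair 2, and with large fish in 647 it had 0.08 and 0.17. The first is a 2.04-fold ratio, with 268 probes of that array higher, and the other 3 arrays lay at or under 1.12-fold. Positive values on all 4 muscle arrays as deposited were found for 5.57% of 41652 probes. The mean was 0.34 ± 0.31 (n = 2 pool pairs) as deposited and 0.21 ± 0.37 turned, each with an adjusted p of 1 in limma, and the turned pairs had 0.47 and -0.05. Both the size and the turned sign thus rested on 1 array of pool pair 1, since the turned value was -0.05 without that pair and -0.13 when only the arrays of large fish in 647 were used. The liver ratio of ahr2d exceeded its muscle ratio by 0.09 turned (95% interval -0.58 to 0.76, adjusted p 0.900 in limma), and as deposited the difference was -0.27 (adjusted p 0.846).

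The receptor gene ahr2d and its target had opposite signs on most of these arrays. The sign of one against the other on an array is the same in both readings, because a turn acts on the whole array. The ahr2d probe and A_05_P248994 had opposite signs on 4 of 4 liver arrays and 3 of 4 muscle arrays, 7 of 8 in all. Over 34757 probes, 4.17% opposed ahr2d on at least 7 arrays and 10.3% on all 4 liver arrays. The exception was muscle pool pair 1 with large fish in 647, where both were positive. With A_05_P249154 the signs were opposite on 3 of 4 liver arrays and 3 of 4 muscle arrays, 6 of 8 in all, and 14.5% of the probes opposed ahr2d at least as often. Some opposite signs came from small values. In muscle pool pair 2 with large fish in 555, ahr2d had 0.07 and A_05_P249154 had -0.09. The 8 arrays hold only 4 pool pairs, which is too few for a correlation across samples, and none is given.

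**Figure D3:**
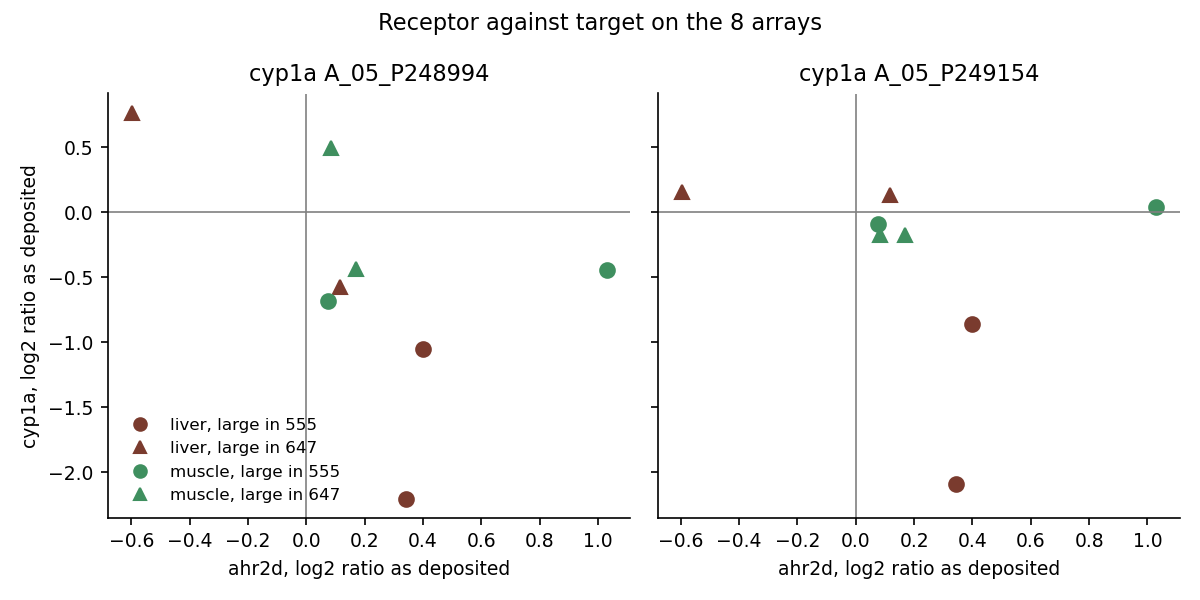
Deposited log2 ratio of ahr2d (horizontal axis) against that of the cyp1a probes A_05_P248994 (left) and A_05_P249154 (right) on the 8 arrays; brown is liver, green is muscle, circles are arrays with large fish in 555 and triangles those with large fish in 647. With A_05_P248994, 7 of 8 points lie in the quadrants of opposite sign, and the lowest liver point pairs 0.34 for ahr2d with -2.20 for cyp1a.

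Per pool pair, with both cyp1a probes averaged, ahr2d exceeded cyp1a by 1.78 and 0.51 in liver and by 0.65 and -0.00 in muscle when turned. As deposited the differences were 0.72 and 0.85 in liver and 0.58 and 0.47 in muscle. These are differences between log2 ratios, not between levels of the 2 genes. The signs of the pair values were opposite in 3 of 4 pool pairs in each reading. Turned, the exception was muscle pool pair 2, with -0.05 for ahr2d and -0.04 for cyp1a. As deposited it was liver pool pair 1, with -0.13 for ahr2d and -0.84 for cyp1a. The opposite pairs as deposited included muscle pool pair 1, where the cyp1a value was only -0.02. How many of all probes opposed ahr2d in as many pool pairs was not counted. Over the 4 pool pairs the exact sign-flip permutation test, two-sided, cannot give a p under 0.125. It gave 0.125 for A_05_P248994 turned, with 4 of 4 pairs negative and a mean of -0.58 ± 0.62 (n = 4), and an exact p of 0.25 as deposited, with 3 negative and 1 positive. For A_05_P249154 it gave an exact p of 0.5 turned, with 2 pairs negative and 2 positive, and 0.125 as deposited, with 4 of 4 negative and a mean of -0.38 ± 0.41. For ahr2d it gave an exact p of 0.25 turned and 0.375 as deposited, with 3 of 4 pairs positive in each.

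Blank spots were set beside both genes, because no intensities were used. In liver the dark corner spots, which carry no trout sequence, had deposited ratios of 0.76 and 0.71 with large fish in 555 and of -1.26 and -0.12 with large fish in 647. They had the sign of ahr2d on 3 of 4 liver arrays. Their sign there was opposite to A_05_P248994 on 3 of 4 arrays and to A_05_P249154 on 4 of 4. In muscle they had the sign of ahr2d on 3 of 4 arrays and the sign opposite to A_05_P248994 on 4 of 4, while against A_05_P249154 they were split, 2 alike and 2 opposite. The negative control spots, with a value on 3 liver arrays, had the sign of ahr2d on 2 of them. Their sign there was opposite to A_05_P248994 on 2 and to A_05_P249154 on 3. In muscle they had the sign opposite to ahr2d on 3 of 4 arrays and were split 2 and 2 against each cyp1a probe. On most liver arrays blank spots thus had the sign of ahr2d and the sign opposite to each cyp1a probe, though not on every array. In muscle this held only for the dark corner spots with ahr2d and A_05_P248994. The median over all probes was 0.11 and 0.08 on the liver arrays with large fish in 555, and -0.08 and -0.05 in 647. It had the sign of the dark corner spots on each liver array, so sharing that sign there is not particular to ahr2d. How many of all probes had the sign of blank spots as often, or as rarely, was not counted. The part of dim signal in the opposition of ahr2d and cyp1a was not tested.

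Other receptor genes on the array differed in how they lay beside ahr2d and cyp1a. In liver ahr1 and ahr2a had the sign of ahr2d on 3 of 4 arrays, ahr2b on 1 and ahr2g on 0. Of 34757 probes, 10.3% opposed ahr2d on all 4 liver arrays, as ahr2g did. The sign of cyp1a A_05_P248994 was shared on 4 of 4 liver arrays by ahr2g, 3 by ahr2b and 1 each by ahr1 and ahr2a. For A_05_P249154 these counts were 3, 4 and 2 each. In muscle ahr2g had the sign of A_05_P248994 on 4 of 4 arrays and that of A_05_P249154 on 2. The muscle counts of ahr1, ahr2a and ahr2b were 1 to 2 with each cyp1a probe. How many of all probes shared the sign of a cyp1a probe as often was not counted. The turned liver means were 0.36 ± 0.80 for ahr1, 0.05 ± 0.27 for ahr2a and -0.52 ± 0.38 for ahr2b (SD, n = 2 pool pairs). The ahr2g probe, which like ahr2a was named after its values were seen, had -0.44 ± 0.49. Of the 5 receptor genes, ahr2d was thus the one with positive turned values in both liver pool pairs, as were 37.3% of all liver probes. Both ahr2b and ahr2g had negative ones. As deposited the ahr2d pairs had -0.13 and 0.26. None of the 5 genes passed turned, with adjusted p from 0.214 for ahr2b to 0.823 for ahr2a in limma. As deposited ahr2b had 0.26 ± 0.66, of the other sign, since its pairs then had 0.73 and -0.20.

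The largest single receptor values stood on 1 liver array. With large fish in 647, pool pair 1 gave -1.45 for ahr1 and 1.52 for ahr2b, while the other 3 liver values ranged from -0.15 to 0.41 for ahr1 and from -0.45 to 0.05 for ahr2b. In muscle the means of ahr1, ahr2a, ahr2b and ahr2g ran from -0.10 to 0.01 turned and from -0.03 to 0.21 as deposited. The upper value as deposited belonged to ahr1, positive on 4 of 4 muscle arrays like ahr2d.

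**Figure D4:**
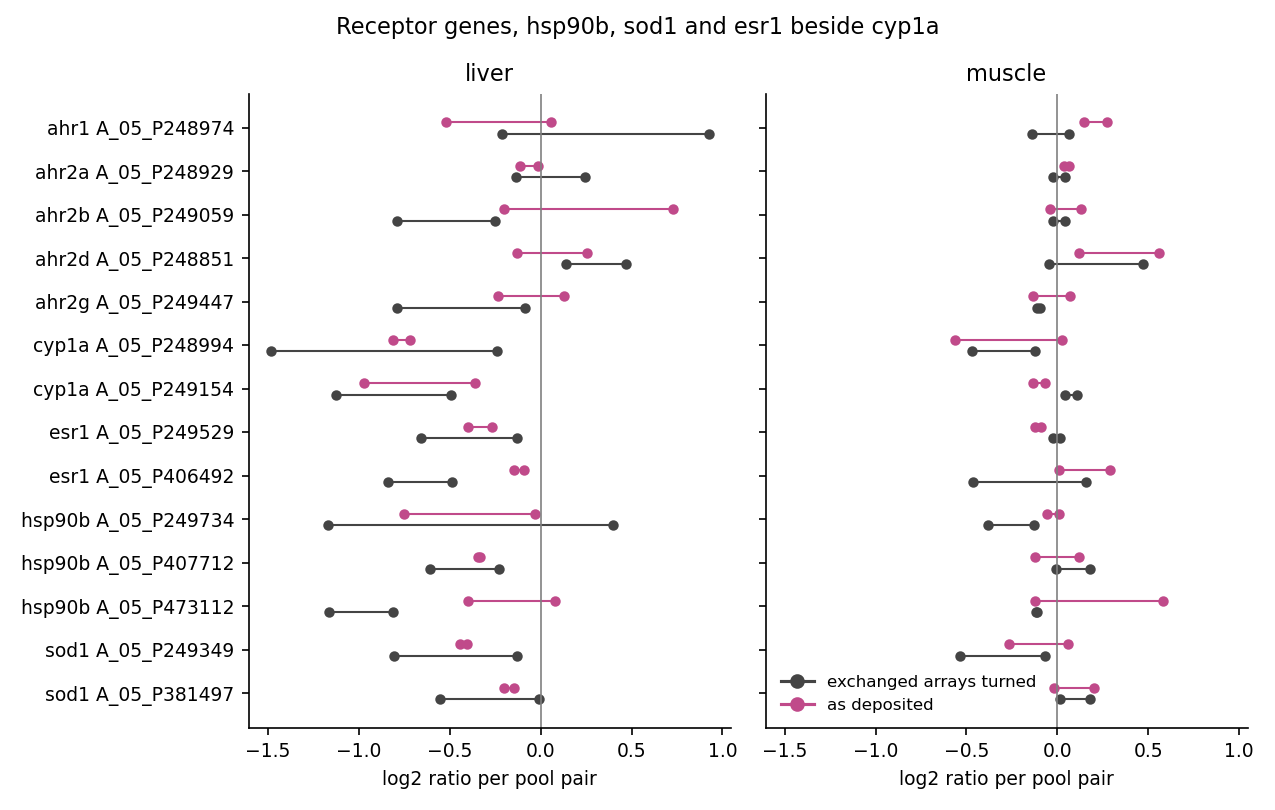
Log2 ratio per pool pair (horizontal axis) in liver (left) and muscle (right) for each probe of the receptor genes, hsp90b, sod1, esr1 and cyp1a; joined points are the 2 pool pairs, grey with the exchanged arrays turned and pink as deposited. In liver the grey points of cyp1a reach -1.48, those of hsp90b A_05_P473112 lie at -1.16 and -0.81, and those of ahr2d at 0.47 and 0.14.

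Of the receptor and its partner proteins, 4 other genes of 20 symbols sought were among the platform symbols, with 6 probes. Only 221 of 43603 probes carry a symbol, so a gene not found by name may still be on the array. Their median turned mean in liver was -0.23, against 0.04 over all liver probes, with 2 genes positive and 2 negative. In muscle it was -0.01, against 0.01 over all probes. As deposited the medians were -0.15 in liver and 0.06 in muscle. These medians and counts leave out ahr2g, with -0.44 turned in liver, whose symbol was not among those sought. The fourth gene of the list was hsp90b, a chaperone of the HSP90 family that holds the unbound receptor, with 3 probes. Its probe A_05_P473112 had a turned liver mean of -0.99 ± 0.25, negative on 4 of 4 turned arrays, and an adjusted p of 0.165 in limma. As deposited it had -0.16 ± 0.34. The remaining hsp90b probes had turned liver means of -0.39 ± 1.11 and -0.42 ± 0.27. Of the probes of these 4 genes 0 passed in either tissue or reading.

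Of 14 symbols of further induced targets, among them cyp1b1, the cyp1c genes, tiparp and nqo1, 0 were among the platform symbols. So cyp1a is the one target of the receptor that could be read by name. Of 27 symbols of other foreign compound metabolism, 0 were present as well. Among 22 metallothionein and antioxidant symbols only sod1 was found, which encodes cytosolic superoxide dismutase. Its probes had turned liver means of -0.47 ± 0.48 and -0.28 ± 0.38, and adjusted p of 0.302 and 0.370 in limma. Among 10 oestrogen receptor and vitellogenin symbols only esr1 was found. This oestrogen receptor gene is known for cross-talk with the aryl hydrocarbon receptor in fish liver, and its probes had turned liver means of -0.39 ± 0.37 and -0.66 ± 0.25. Their adjusted p in limma were 0.260 and 0.208. As deposited these sod1 and esr1 means were smaller in size, from -0.42 to -0.12.

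The named genes with the most similar ratios were found by the root mean square difference over the 8 arrays, which is the same in both readings. For cyp1a, averaged over its probes, these were rtn4 with a difference of 0.354, b2m with 0.384 and antithrombin with 0.404, against a median of 0.913 over 73 genes. The first is a reticulon gene, b2m encodes a subunit of class I histocompatibility molecules, and antithrombin is a plasma protein made by the liver. On the liver arrays antithrombin had -1.85 and -0.88 with large fish in 555, and 1.07 and -0.87 with large fish in 647, where cyp1a had -2.15, -0.96, 0.46 and -0.22. All 4 signs were shared, which is no separate observation, since antithrombin was picked for its likeness on these arrays. Against single probes, antithrombin shared the sign of A_05_P248994 on 4 of 4 liver arrays and that of A_05_P249154 on 3.

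That likeness did not extend to every transcript of liver plasma proteins. Over the 5 probes of alb1, antithrombin and trf, the range was -1.85 to 0.48 on liver pool pair 1 with large fish in 555 and -1.02 to 0.55 on pool pair 2 with the same dyes. With large fish in 647 it was -0.11 to 1.86 and -1.70 to 0.07. Some plasma protein probes thus lay with cyp1a and others on the opposite side of 0. In muscle, where these transcripts were chosen as markers of liver cells or plasma, all 5 probes were positive in pool pair 1 with large fish in 647 and negative on both arrays of pool pair 2. Among 4 red blood cell symbols only hba, an alpha globin, was found, with 3 probes. Its probe A_05_P249379 had -1.45 and -0.61 in liver with large fish in 555 and 0.25 and -0.88 with large fish in 647, and it shared the sign of cyp1a A_05_P248994 on 4 of 4 arrays in each tissue. The hba probe A_05_P332705 was opposite to cyp1a A_05_P248994 on 3 of 4 liver arrays and A_05_P491417 had its sign on 3 of 4. The share of all probes with such counts was not computed. The 5 fast muscle probes of mlc-2 and prvb, the only 2 of 12 such symbols found, had medians of 0.22, 0.28, 0.26 and -0.13 on the liver arrays, listed by pool pair with large fish in 555 first. In the same order their ranges were 0.03 to 0.40, -0.10 to 1.57, -0.04 to 1.14 and -0.68 to 3.39. On the last of these arrays 4 of the 5 probes had a value. Of the leukocyte, exocrine pancreas and adipocyte symbols 0 were found. The part of cell composition in the cyp1a ratios was not tested.

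For ahr2d the most similar genes were tr-alpha, a thyroid hormone receptor, with a root mean square difference of 0.204, vdr0, a vitamin D receptor, with 0.295, and myod1c, a myogenic factor, with 0.328. The median over 73 genes was 0.622. The high ahr2d value in muscle pool pair 1 with large fish in 555, 1.03, was also seen for tr-alpha with 0.96 and vdr0 with 0.73 on that array. The ratios of both lay between -0.23 and 0.26 on the other muscle arrays. Since tr-alpha and vdr0 were picked for likeness to ahr2d on these same arrays, their nearness to it is no separate observation.

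**Figure D5:**
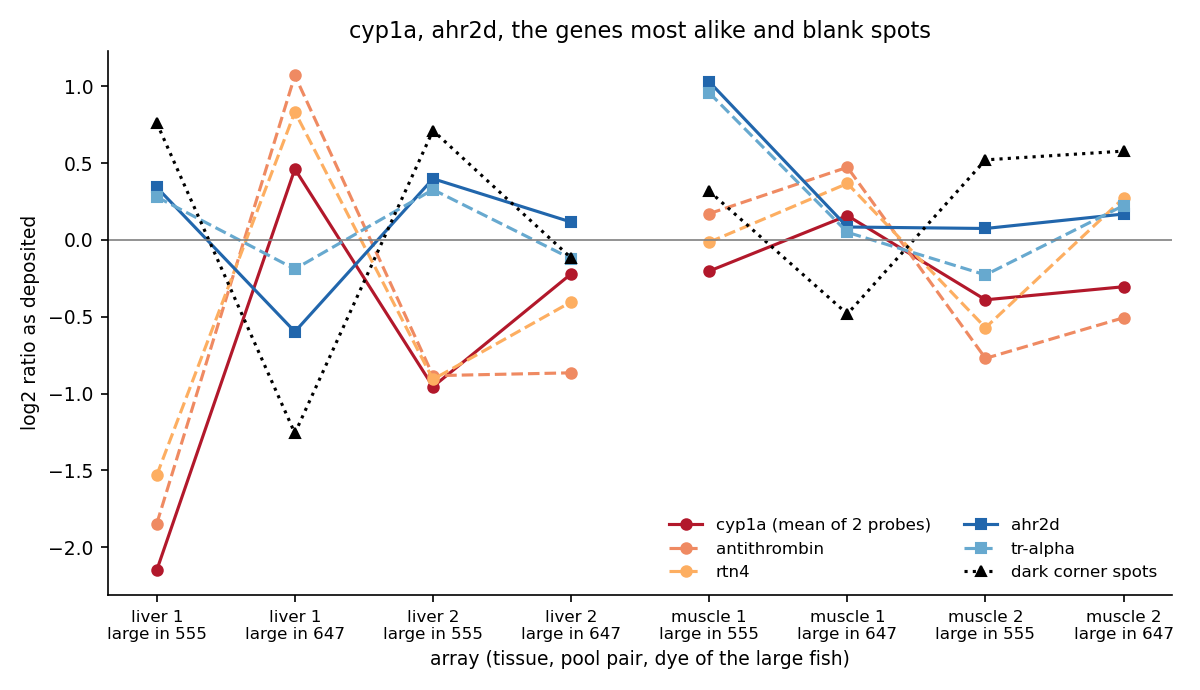
Deposited log2 ratio (vertical axis) on the 8 arrays (horizontal axis) of cyp1a (mean of its 2 probes) with antithrombin and rtn4, of ahr2d with tr-alpha, and of the dark corner spots. On liver pool pair 1 with large fish in 555, cyp1a is at -2.15 and antithrombin at -1.85, while ahr2d is at 0.34 and the dark corner spots are at 0.76.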

How the data were processed

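The deposited values are log2 ratios of both channels, 1 per array and row; that unit was found from the values, since 2 to the power of a value falls on 3 decimals for 99.2 to 99.8% of the non-zero values under 1 in size (tolerance 0.05 thousandths). Per the labels' protocols, cDNA from 0.5 µg mRNA was labelled directly. Background correction, normalization and the reason for empty cells are not given in the sources used here. No intensities were used, so precision is limited by the number of arrays.

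Of 43663 rows, 60 control rows were left out of the fits. Symbols came from the platform's old annotation, which named 221 probes. Arrays of a pool pair were averaged and the 4 pair values fitted in limma 3.58.1 (R 4.3.3), with tissue as the group, requiring all 4 arrays of a tissue. Residual degrees of freedom were 2 and prior ones 2.21, and the code was tested on simulated data. Each tissue mean was tested against 0 and liver against muscle, two-sided, with Benjamini-Hochberg adjustment over all probes and a threshold of 0.05. Liver and muscle pools of one number were not treated as pairs, since their deviations from the tissue means correlated with r = 0.067 turned and 0.041 as deposited across probes.

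Named genes were cyp1a and ahr2d, up to 3 genes per pathway list with the largest absolute turned liver mean, and the 3 genes with the smallest root mean square difference from each. These genes and lists were chosen with earlier results of these data known. Alternatives covered the reading, centring, scaling, quantile normalization, missing values, dye orientation, averaging of probes, control spots, robust moderation, samples in the fit, the replicate block and each pool pair left out.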

Additional observations from a re-analysis of the deposited data

Results flagged for a closer look

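The turned values of the cyp1a probe A_05_P249154 were negative in both liver pool pairs and positive in both muscle pool pairs, a liver minus muscle difference of -0.89. The test of that difference in limma gave an adjusted p of 0.546. As deposited, all 4 pool pairs of this probe were negative. Groups of 2 pool pairs are too small for a check of single outlying samples.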

How the results depend on the processing

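The liver means of all 3 probes kept their sign under the 17 alternatives run on each. The values ranged from -1.63 to -0.09 for A_05_P248994, from -1.48 to -0.15 for A_05_P249154 and from 0.07 to 0.47 for ahr2d. Several of these alternatives change only the estimate of the spread or the other rows and samples in the fit. They leave the mean as it was, so its sign could not change there. No probe of either gene passed in muscle under any of 14 alternatives. Signs near 0 changed. In muscle A_05_P249154 had -0.10 with values taken as already turned, in the shared fit and fitted alone, and -0.028 from arrays of large fish in 555 alone. The muscle value of ahr2d was -0.13 from arrays of large fish in 647 alone, and ranged from -0.047 to 0.47 with 1 muscle pair left out. The liver minus muscle difference of ahr2d was -0.27 as deposited, with and without the replicate block, -0.13 after scaling, -0.14 after quantile normalization and -0.18 from arrays of large fish in 555 alone. With 1 pool pair left out it ranged from -0.17 to 0.35, and that of A_05_P248994 from -1.19 to 0.058. Where 1 orientation was used, the change follows from using 1 array of each pair, and otherwise the cause was not tested.

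Counts over all probes, 0 in each comparison, were 1870 in liver with 8 arrays and the pool pair as a random block, where limma estimated a correlation of -0.151 between arrays of a pair. That count depended on muscle being in the fit, since the 4 liver arrays fitted alone in that way, with a correlation of -0.170, passed 0 (6088 at an unadjusted p under 0.05). With the 8 arrays counted as independent 437 passed. Both alternatives were chosen after seeing the data, and 0 of the 3 probes of cyp1a and ahr2d passed in any of these array fits. The counts were 7651 to 7964 in liver without 1 liver pair, and 633 with liver replicate 2 from its array with large fish in 555 alone. In muscle 3 passed with muscle fitted alone and 3 after centring and scaling. For liver minus muscle 0 to 4533 passed with 1 pair left out. With the replicate block 0 passed, as in the fit without it, with 2139 against 3118 at an unadjusted p under 0.05, and the adjusted p in limma were 0.709 for both cyp1a probes and 0.896 for ahr2d. The labels do not say that the number marks shared fish.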

Other observations

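Values that bear on the 2 readings are given without an explanation. Of the non-zero values under 1 in size on each array, 99.2 to 99.8% were log2 of a number with 3 decimals as deposited. With the sign turned 10.5 to 14.5% were, on arrays of both orientations alike. The tolerance was 0.05 thousandths. Probes are not independent replicates. Across them, the deposited values of the 2 arrays of a pool pair correlated with r = -0.21 and -0.04 in liver and -0.08 and 0.08 in muscle. Arrays of one orientation from different pool pairs correlated with r = 0.33 and 0.06 in liver and 0.17 and 0.05 in muscle. Where both the pool pair and the orientation differed, r was -0.25 and 0.03 in liver and -0.33 and -0.07 in muscle.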
